A study of Drosophila melanogaster with 6 samples.

Results

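Glycolysis splits glucose into pyruvate in the cytosol, first spending ATP in a preparatory phase and then recovering it, with NADH, in a payoff phase. Pyruvate then enters the mitochondrion, where pyruvate dehydrogenase makes acetyl-CoA, and the tricarboxylic acid (TCA) cycle oxidises the acetyl group and passes electrons to the respiratory chain. In the Drosophila ovary, nurse cells and follicle cells supply the growing oocyte with RNA, proteins and fuel stores. The genes of both pathways were followed here in ovaries whose germline overexpressed Sam-S, the gene for S-adenosylmethionine synthetase, which makes the main methyl donor of the cell.

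The 37 genes were chosen by name as enzymes of the 2 pathways, and all 37 were found among the 17457 features of the deposited table. They form a list of 16 genes for glycolysis, gluconeogenesis and the redox steps beside them, and a list of 21 genes for the TCA cycle with the steps that lead in and out of it. In the table, 24 carried the name used here, 12 were matched by their FlyBase identifier under an older name, and Fum1 was matched through a RefSeq synonym. Polyadenylated RNA of whole ovaries was sequenced from 6 samples, 3 per group. Overexpression ovaries came from nanos-gal4 flies crossed with flies carrying UASp-Sam-S, and the control ovaries from nanos-gal4 flies crossed with flies whose docking site for that construct was empty, so all 6 samples share the driver. The nanos driver is active in the germline, whereas the RNA came from germline and somatic cells together. The labels do not give the age of the flies or say that the replicates came from separate cultures, so the p-values measure only the spread between these samples. The table gives TPM, transcript abundances that are corrected for length, so that genes can be compared, and that share 1 total across samples. It keeps no sequencing depth, so the depth behind each value is unknown.

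Sam-S itself averaged 1518 ± 67.5 TPM in Sam-S overexpression ovaries and 497 ± 14.5 TPM in control ovaries (SD, n = 3 each), which is 1.61 higher on the log2 scale and passed the test (limma, adjusted p = 2.79e-06). The values do not separate the transgene from the endogenous gene. The 8 germline markers summed to between 4830 and 5120 TPM in overexpression ovaries and between 4904 and 5118 TPM in controls. The largest part was CycB, at 2602 ± 133 TPM in overexpression ovaries and 2724 ± 91.9 TPM in controls. In osk, aub and orb every overexpression sample was above every control, as in 6.25% of tested features, and none of them passed the test (limma, lowest adjusted p = 0.549). In the other 5 markers the groups overlapped. The 10 follicle cell markers summed to between 14572 and 21305 TPM in overexpression ovaries and between 18447 and 22581 TPM in controls. The 10 muscle sheath markers summed to between 107 and 153 TPM in overexpression ovaries and between 102 and 134 TPM in controls. Each of these 10 had a higher mean in overexpression ovaries, with ratios to controls from 1.03 to 1.43. In bt and TpnC73F every overexpression sample was above every control, the arrangement of 6.25% of tested features. Neither passed the test (limma, adjusted p = 0.909 and 0.519). The 8 testis markers summed to between 5.9 and 6.57 TPM in overexpression ovaries and between 5.05 and 6.15 TPM in controls. Most of that sum was bol, with 5.42, 4.87 and 4.81 TPM in overexpression ovaries and 4.53, 4.23 and 4.76 TPM in controls, followed by topi with 1.15, 0.97 and 0.99 TPM in overexpression ovaries and 0.64, 0.66 and 1.32 TPM in controls. The testis markers dj, ocn and aly were listed at 0 in every sample.

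Both pathways were expressed at high levels in every ovary sample. Of the 37 genes, 30 had a mean of at least 100 TPM over the 6 samples, and the same number lay above the 90th percentile of all features of the table. Gapdh2 led with a mean of 1646 TPM, followed by Eno with 1080 TPM, Gapdh1 with 710 TPM and PyK with 544 TPM, all 4 from the payoff phase of glycolysis. The TCA list was led by Idh with 492 TPM, Mdh2 with 441 TPM and Mdh1 with 381 TPM. At the other end, Ldh and Hex-C averaged 0.413 and 0.278 TPM. The 16 glycolysis genes together held between 0.586% and 0.611% of all TPM in overexpression ovaries and between 0.628% and 0.664% in controls. The 21 TCA genes held between 0.448% and 0.451% in overexpression ovaries and between 0.454% and 0.462% in controls.

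No gene of either pathway passed the test. On the log2(TPM + 1) scale, limma called 0 of the 14 glycolysis genes and 0 of the 21 TCA genes that had a mean of at least 1 TPM (adjusted p under 0.05, adjusted over all 7855 features tested), against 22 called features in all, 0.28% of those tested. At an unadjusted p under 0.05 in limma there were 5 glycolysis genes and 2 TCA genes, where 6.58% of all tested features were under that value. The authors' deposited table, whose test is not named, called 122 features at an FDR under 0.05, which is 0.699% of its features, and 1 of the 37 genes, Pepck1. The lists differ in how their log2 fold changes are placed. In glycolysis the median was -0.08 and 12 of 14 values were below 0, while in the TCA list the median was -0.02 and 14 of 21 values were below 0. Over all tested features the median was -0.01, with 56% below 0. This background is not matched on level: at a mean of at least 5 TPM its median was -0.02, with 4101 of 6918 features below 0. It also moved with single samples, with 3294 of 7839 below 0 without overexpression replicate 1 and 4931 of 7865 without control replicate 2. Without overexpression replicate 1, 10 of 14 glycolysis values and 12 of 21 TCA values were below 0. Quantile normalization gave a median of -0.0469 with 11 of 14 values below 0 in glycolysis, and a median of 0.0044 with 9 of 21 values below 0 in the TCA list, and scaling by a trimmed mean gave 12 of 14 and 12 of 21. Apart from Pepck1 and fbp, no 95% interval of a gene reached beyond -0.24 or 0.26 on the log2 scale. In simulated data with the spread of all tested features, a log2 change of 0.25 was called in 0% of changed features, one of 0.5 in 72.5% and one of 1 in 95%. The changed features were drawn from tested features at levels above that of Pepck1, not from these genes, most of which varied less between replicates. Changes smaller than 0.25 were not simulated, so the rates do not give the power for differences of the size seen for most of these genes.

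**Figure D1:**
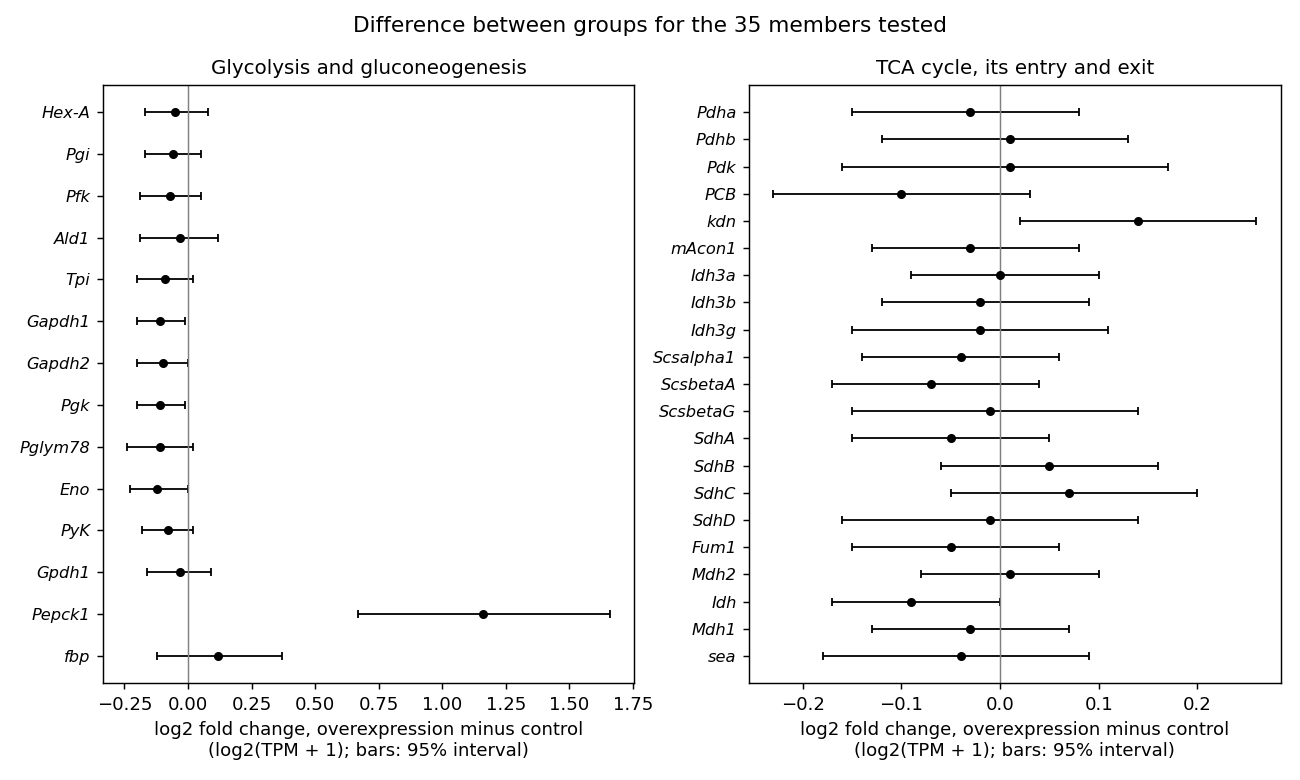
Log2 fold change of each tested gene, overexpression minus control on the log2(TPM + 1) scale, with its 95% interval from limma; the 2 panels have different axes. All 6 payoff-phase genes from Gapdh1 to PyK lie left of 0, the TCA genes scatter around 0, and Pepck1 stands apart at 1.16.

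The preparatory phase turns glucose into triose phosphates. Hex-A, the hexokinase that traps glucose by phosphorylating it, had 115.93, 124.31 and 112.83 TPM in overexpression ovaries, against 121.26, 117.91 and 125.5 TPM in control ovaries. Its groups overlapped, and the second overexpression sample was above the first and second control. Hex-C, the other hexokinase of the list, was at 0.29, 0.27 and 0.54 TPM in overexpression ovaries and at 0.12, 0.29 and 0.16 TPM in controls, so that nearly all hexokinase mRNA counted here was Hex-A. Hex-C was under the filter and was not tested.

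Pfk, the phosphofructokinase that commits sugar to glycolysis, was the lowest core gene of the phase after Hex-C. It averaged 71.3 ± 2.89 TPM in overexpression ovaries and 74.9 ± 1.82 TPM in controls (SD, n = 3 each). Pgi, which interconverts the hexose phosphates, averaged 237 ± 8.91 TPM in overexpression ovaries and 247 ± 6.32 TPM in controls. Ald1, the aldolase that cleaves fructose bisphosphate, averaged 266 ± 18.5 TPM in overexpression ovaries and 272 ± 18.7 TPM in controls. Tpi, which equalises the triose phosphates, had 456.13, 466.01 and 477.81 TPM in overexpression ovaries, against 475.53, 499.03 and 520.5 TPM in controls. Only 1 pair of samples kept the Tpi groups from separating, the third overexpression sample being above the first control. In all 5 tested genes of the phase the groups overlapped, and their log2 fold changes ran from -0.09 to -0.03 (limma, adjusted p of 0.847 or more). For Ald1 the sign turned under quantile normalization.

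The payoff phase, which yields ATP and NADH, held the most abundant mRNAs of either pathway, and in 5 of its 6 genes every overexpression sample was below every control sample. Over all tested features, 5.6% showed that arrangement. The group means in overexpression ovaries were 92.2% to 94.3% of those in control ovaries, and none of the 6 genes passed the test (limma, lowest adjusted p = 0.635). All 6 log2 fold changes stayed below 0 in each of the 13 other fits, many of which could not have turned them. The replicate block, the fit without the trend and the other filters leave the estimate itself unchanged. Leaving out 1 sample cannot turn the sign of the 5 genes whose groups do not overlap. The 6 genes together summed to 4488 TPM in overexpression ovaries against 4903 TPM in controls in batch 1. The sums were 4648 against 4816 TPM in batch 2 and 4635 against 5098 TPM in batch 3, so the sum was lower in each batch. Pglym78 was the exception among single genes, at 0.03 above its control in batch 2 on the log2 scale. In whole ovaries, fewer cells of a type that expresses a gene strongly and less of its RNA per cell cannot be told apart.

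Gapdh1 and Gapdh2 encode glyceraldehyde-3-phosphate dehydrogenase, which makes the NADH of the pathway. Gapdh1 (chromosome 2R, 7791901 to 7793380, minus strand) had 675.31, 678.27 and 697.02 TPM in overexpression ovaries, against 719.49, 740.01 and 751.37 TPM in controls. Gapdh2 (chromosome X, 15868145 to 15869661, plus strand) had 1547.69, 1599.64 and 1615.26 TPM in overexpression ovaries, against 1717.84, 1656.22 and 1741.38 TPM in controls. Neither gene's groups overlapped, and the log2 fold changes were -0.11 and -0.10 (limma, adjusted p = 0.635 and 0.755). Gapdh2 was 2.32 ± 0.0336 times as abundant as Gapdh1 in overexpression ovaries and 2.31 ± 0.0748 times in controls (SD, n = 3 each), so the balance of the pair was alike in both groups within its spread. The genes are close copies, and how the authors assigned reads that match both is not stated, so the split between them is uncertain.

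Pgk, phosphoglycerate kinase, catalyses the first ATP-forming step of glycolysis. Its levels were 319.09, 322.34 and 326.66 TPM in overexpression ovaries, against 338.44, 349.24 and 354.09 TPM in controls, with no overlap and a difference of -0.11 on the log2 scale (limma, adjusted p = 0.652). Eno, enolase, had 1011.12, 1051.6 and 1046.26 TPM in overexpression ovaries, against 1104.62, 1078.56 and 1188.02 TPM in controls. For Eno the groups did not overlap either, and the log2 fold change of -0.12 became -0.075 without control replicate 3, the highest of the 6 samples. PyK, pyruvate kinase, which forms pyruvate and ATP in the last step, had 530.45, 534.27 and 518.97 TPM in overexpression ovaries, against 562.18, 539.12 and 578.01 TPM in controls. The PyK groups were parted by less than 5 TPM between the second overexpression and the second control sample. Pglym78, phosphoglycerate mutase, was the exception with overlapping groups, at 404.68, 461.95 and 431.02 TPM in overexpression ovaries, against 459.97, 452.79 and 485.06 TPM in controls. The 10 follicle cell markers, of which all 10 were detected, summed to 17672 ± 3398 TPM in overexpression ovaries and 20259 ± 2114 TPM in controls (SD, n = 3 each), with overlapping values. The largest part was the chorion gene Cp15, at 7863 ± 818 TPM in overexpression ovaries and 9563 ± 940 TPM in controls, with no overlap. The means of Cp7Fb, Vm32E, Fas3, tj and Cad99C were higher in overexpression ovaries, and those of the other markers were lower. The part of follicle cells in these differences was not tested.

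**Figure D2:**
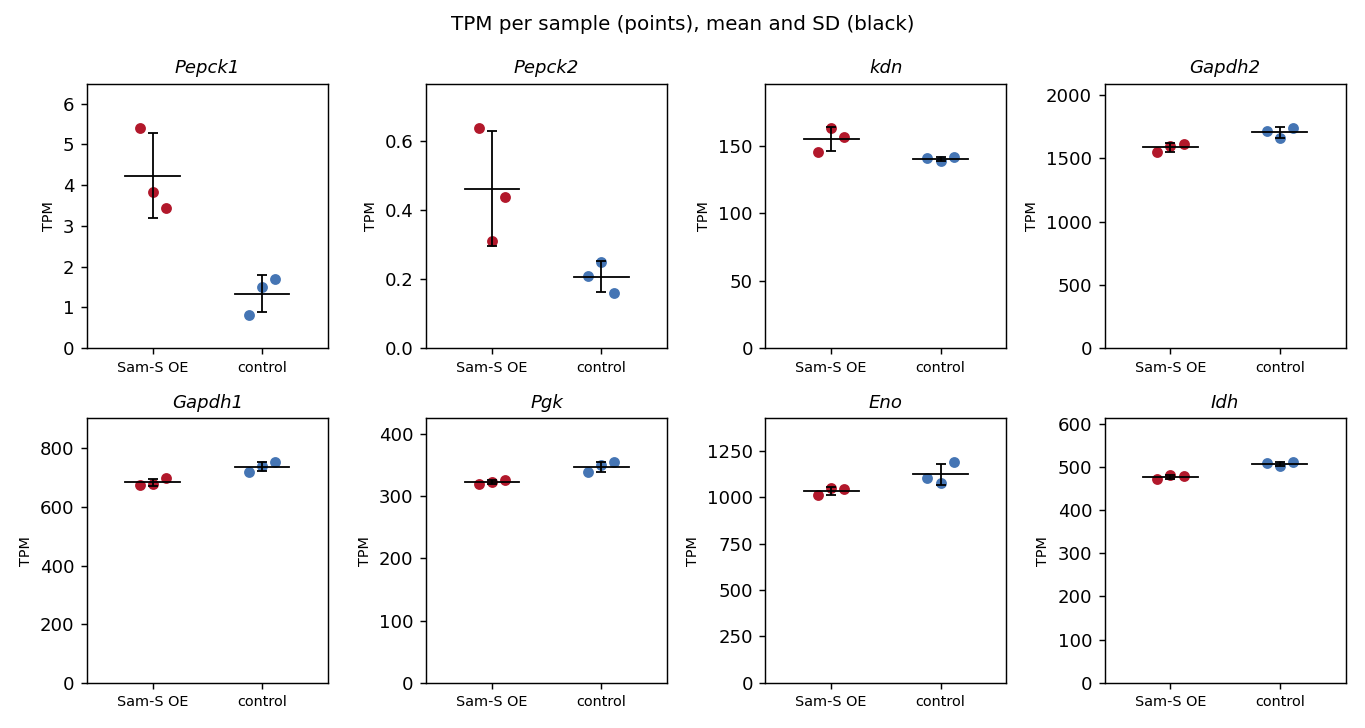
TPM per sample (points) for 8 genes, with the overexpression samples left of the controls, a black line for the mean and error bars for the SD (n = 3 each), and axes that start at 0. Pepck1 and Pepck2 are at low levels, with overexpression means 3.16 and 2.24 times those of controls. Pepck2 lies under 1 TPM in all samples and was not tested. The gene kdn is slightly above its controls, and Gapdh2, Gapdh1, Pgk, Eno and Idh are slightly below theirs with no overlap.

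Beside the main path, Gpdh1 and Ldh are alternative ways to regenerate NAD in the cytosol. Gpdh1, which makes glycerol-3-phosphate and so also feeds lipid synthesis, had 229.06, 259.4 and 242.41 TPM in overexpression ovaries, against 248.99, 247.91 and 250.97 TPM in controls. The controls were nearly identical, with an SD of 1.55 TPM, and the overexpression samples spread on either side of them. Ldh, lactate dehydrogenase, was at 0.58, 0.42 and 0.12 TPM in overexpression ovaries and at 0.33, 0.6 and 0.43 TPM in controls. Of these 2 routes, Gpdh1 was above 229 TPM and Ldh under 1 TPM in all 6 samples.

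Pepck1 and fbp act in gluconeogenesis, the reverse direction. Pepck1 encodes phosphoenolpyruvate carboxykinase, which turns oxaloacetate into phosphoenolpyruvate. It had 5.41, 3.84 and 3.44 TPM in overexpression ovaries, against 0.82, 1.5 and 1.7 TPM in control ovaries. Every overexpression sample was at least 3.44 TPM and no control exceeded 1.7 TPM, an arrangement with the overexpression samples on top that 6.25% of tested features showed. The mean was 3.16 times that of controls, with a log2 fold change of 1.16 and a 95% interval of 0.67 to 1.66 on the log2(TPM + 1) scale, which understates the change of a low gene. Within batches 1, 2 and 3 of the labels the log2 difference was 1.82, 0.95 and 0.72. Of the 7855 features tested, 15 had a larger log2 fold change, a ranking that takes no account of the spread between replicates. The limma p was 0.000611 before and 0.117 after adjustment, and the adjusted p stayed between 0.134 and 0.425 over the 12 other limma fits that included Pepck1. The authors' deposited table called it (FDR 8.47e-07) at 1.65 on the log2 scale. That comparison covers more features than the limma fit and has no filter on TPM. Before adjustment, the authors' test gave p = 1.45e-09 and limma gave p = 0.000611. With no filter on low values, limma gave an adjusted p of 0.273. The tool and input of the authors' comparison are not named, and the cause of the difference between the tests was not tested.

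The feature CG45087 shares the position of Pepck1 (chromosome 2R, 18536767 to 18539416, plus strand) and had the same 6 values, so the pair is 1 measurement. Pepck2, which ends 1018 bases before Pepck1 on the same strand, had 0.64, 0.31 and 0.44 TPM in overexpression ovaries, against 0.21, 0.25 and 0.16 TPM in controls. Its groups did not overlap, but at these levels it was under the filter and was not tested here, and the authors' deposited table gave it an FDR of 0.962. In the adult fly, Pepck1 is known for its expression in the fat body. The 7 fat body markers summed to 7447, 6548 and 5045 TPM in overexpression ovaries and to 4908, 5686 and 4963 TPM in controls, with overlapping values. Nearly all of these sums came from the yolk protein genes Yp1, Yp2 and Yp3, which follicle cells also express. Yp1 averaged 2635 ± 570 TPM in overexpression ovaries and 2068 ± 172 TPM in controls (SD, n = 3 each). Yp2 averaged 3134 ± 581 TPM in overexpression ovaries and 2398 ± 254 TPM in controls. The mean of Yp3 went the other way, at 574 ± 110 TPM in overexpression ovaries and 717 ± 27.3 TPM in controls. The groups overlapped in each of these genes. Of the other fat body markers, Fbp1 was listed at 0 in all 6 samples, Lsp2 and Fbp2 did not exceed 0.1 TPM, and apolpp had 2.49, 2.35 and 6.04 TPM in overexpression ovaries and 3.29, 2.52 and 1.96 TPM in controls. The 5 gut markers summed to 3.44, 2.12 and 14.4 TPM in overexpression ovaries and to 4.47, 2.44 and 2.72 TPM in controls. The sum of 14.4 TPM was mostly Mur18B, at 10.87 TPM in that sample, and betaTry was listed at 0 in all 6 samples. The part of other tissues in the Pepck1 values was not tested.

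The enzyme opposing Pfk, fructose-1,6-bisphosphatase (fbp), had 19.08, 22.12 and 24.15 TPM in overexpression ovaries, against 21.41, 17.93 and 20.27 TPM in controls. Its groups overlapped, and the log2 fold change was 0.12 with an interval of -0.12 to 0.37 (limma, adjusted p = 0.935). It ran from 0.0496 without overexpression replicate 3 to 0.212 without overexpression replicate 1. The ratio of Pfk to fbp within a sample was 3.3 ± 0.324 in overexpression ovaries and 3.79 ± 0.283 in controls (SD, n = 3 each), with overlapping values.

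**Figure D3:**
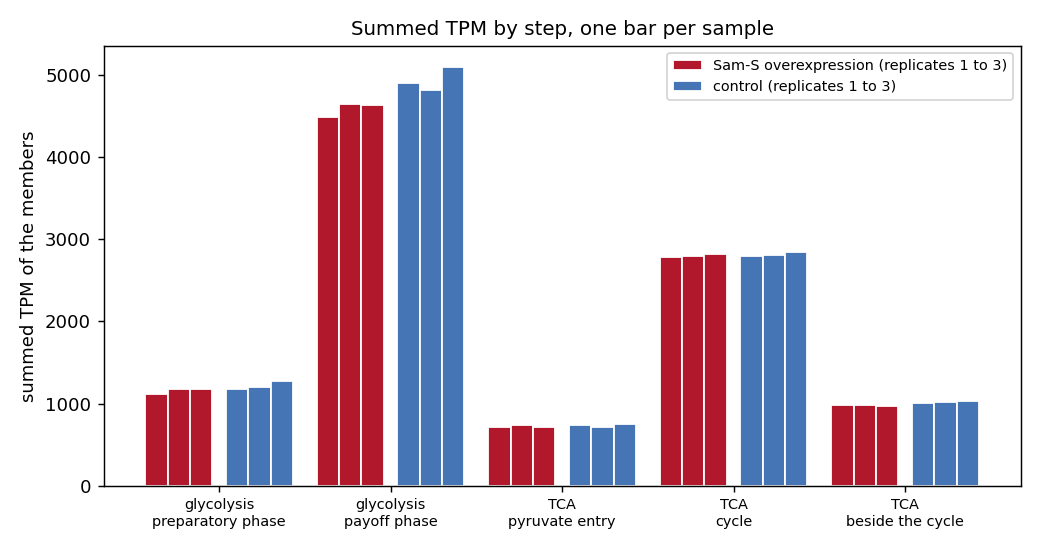
Summed TPM of the genes of each step, 1 bar per sample, with overexpression samples (red) left of controls (blue) in each block and the axis starting at 0. The payoff phase is the block with the largest offset, at 4488 to 4648 TPM in overexpression ovaries and 4816 to 5098 TPM in controls. The genes beside the cycle also do not overlap, at 975 to 983 TPM in overexpression ovaries and 1011 to 1028 TPM in controls. The genes of the cycle itself sum to nearly the same level in all 6 samples.

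The TCA list showed smaller differences. Its 14 genes of the cycle proper summed to 2785, 2799 and 2822 TPM in overexpression ovaries, against 2793, 2811 and 2841 TPM in control ovaries, and the overexpression mean was 99.5% of the control mean. For the payoff phase of glycolysis that figure was 92.9%. Over the whole lists it was 98.5% for the TCA genes and 93.7% for the glycolysis genes. The ratio of the glycolysis sum to the TCA sum within a sample was 1.34 ± 0.0253 in overexpression ovaries and 1.41 ± 0.029 in controls (SD, n = 3 each). Its values ran from 1.31 to 1.35 in overexpression ovaries and from 1.38 to 1.44 in controls, without overlap. As the genes were chosen with results of these samples known, the sums and ratios here and below are given with no test. How often such sums or ratios separate over all features was not computed.

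Pyruvate enters by way of pyruvate dehydrogenase, whose E1 subunits are Pdha and Pdhb. Pdha averaged 368 ± 17.3 TPM in overexpression ovaries and 376 ± 10.8 TPM in controls, and Pdhb averaged 162 ± 9.04 TPM in overexpression ovaries and 161 ± 4.83 TPM in controls (SD, n = 3 each). The subunits pair in equal numbers in the enzyme, yet Pdha mRNA was 2.28 ± 0.213 times as abundant as Pdhb mRNA in overexpression ovaries and 2.34 ± 0.091 times in controls. Pdk, the kinase that switches the complex off, averaged 83.2 ± 4.9 TPM in overexpression ovaries and 82.9 ± 6.53 TPM in controls. The other entry, pyruvate carboxylase (PCB), which replenishes oxaloacetate, had 112.02, 107.41 and 101.01 TPM in overexpression ovaries, against 109.94, 115.97 and 118.17 TPM in controls. None of the 4 entry genes had separated groups, and their log2 fold changes ran from -0.10 to 0.01 (limma, adjusted p of 0.867 or more).

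The first enzyme of the cycle, citrate synthase (kdn), was the TCA gene with the largest log2 fold change and the lowest limma p of its list. It had 145.52, 163.69 and 156.68 TPM in overexpression ovaries, against 141.44, 138.84 and 141.58 TPM in controls. All 3 overexpression samples were above all controls, the first of them by less than 4 TPM, and the log2 fold change was 0.14 with an interval of 0.02 to 0.26 (limma, adjusted p = 0.642). Within batches 1, 2 and 3 the difference was 0.04, 0.24 and 0.15 on the log2 scale. The next enzyme, the aconitase mAcon1, averaged 262 ± 8.55 TPM in overexpression ovaries and 267 ± 8.41 TPM in controls. The kdn to mAcon1 ratio was 0.592 ± 0.0198 in overexpression ovaries and 0.527 ± 0.0112 in controls (SD, n = 3 each), without overlap. The gene kdn (chromosome X, 6350629 to 6361323, plus strand) ends 173 bases from swaPsi, a pseudogene on the opposite strand that averaged 5.29 ± 0.221 TPM in overexpression ovaries and 11.3 ± 0.674 TPM in controls (SD, n = 3 each) and passed the test (limma, adjusted p = 0.00681). The labels name a stranded kit, but whether the counting used the strand is not stated.

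Isocitrate dehydrogenase of the cycle is the NAD-dependent enzyme with subunits Idh3a, Idh3b and Idh3g. Idh3a, the catalytic subunit, averaged 295 ± 2.5 TPM in overexpression ovaries and 294 ± 6.66 TPM in controls (SD, n = 3 each). Idh3b averaged 144 ± 4.61 TPM in overexpression ovaries and 146 ± 2.4 TPM in controls, and Idh3g averaged 155 ± 9.48 TPM in overexpression ovaries and 157 ± 4.39 TPM in controls. In mammals the enzyme holds more alpha subunits than beta or gamma subunits. Here Idh3a mRNA was 2.05 ± 0.0605 times Idh3b mRNA in overexpression ovaries and 2.02 ± 0.0136 times in controls, and 1.91 ± 0.103 times Idh3g mRNA in overexpression ovaries and 1.88 ± 0.0283 times in controls.

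Succinyl-CoA synthetase pairs the alpha subunit Scsalpha1 with a beta subunit, either ScsbetaA for ATP or ScsbetaG for GTP. Scsalpha1 averaged 290 ± 3.14 TPM in overexpression ovaries and 298 ± 10.7 TPM in controls (SD, n = 3 each). ScsbetaA averaged 237 ± 9.46 TPM in overexpression ovaries and 248 ± 5.83 TPM in controls. ScsbetaG was the lowest gene of the TCA list, with 44.3 ± 0.501 TPM in overexpression ovaries and 44.6 ± 2.67 TPM in controls. The mRNA of the ATP-type subunit was thus the more abundant, 5.36 ± 0.242 times ScsbetaG mRNA in overexpression ovaries and 5.58 ± 0.407 times in controls.

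Succinate dehydrogenase, which is also complex II of the respiratory chain, is built of SdhA, SdhB, SdhC and SdhD, whose mRNAs lay within a narrow range of levels. The flavoprotein SdhA had 136.62, 136.28 and 131.58 TPM in overexpression ovaries, against 137.67, 138.34 and 143.76 TPM in controls. The iron-sulphur subunit SdhB had 146.33, 144.73 and 135.26 TPM in overexpression ovaries, against 137.26, 138.85 and 135.68 TPM in controls. Only SdhA had separated groups, by about 1 TPM, at -0.05 on the log2 scale (limma, adjusted p = 0.934). The membrane subunit SdhC averaged 127 ± 6.44 TPM in overexpression ovaries and 121 ± 4.94 TPM in controls, and SdhD averaged 104 ± 4.1 TPM in overexpression ovaries and 105 ± 7.89 TPM in controls (SD, n = 3 each). The SdhA to SdhB ratio was 0.949 ± 0.0207 in overexpression ovaries and 1.02 ± 0.0347 in controls, without overlap, while the ratios of SdhA to SdhC and to SdhD overlapped.

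The last steps of the cycle are fumarase and malate dehydrogenase. Fum1 averaged 269 ± 5.96 TPM in overexpression ovaries and 277 ± 10.4 TPM in controls, and Mdh2, the mitochondrial malate dehydrogenase, averaged 443 ± 1.98 TPM in overexpression ovaries and 440 ± 10.6 TPM in controls (SD, n = 3 each). The groups overlapped in each of these genes. For Mdh2 the 95% interval of the log2 fold change was -0.08 to 0.10, and for Idh3a it was -0.09 to 0.10.

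Beside the cycle, Idh, Mdh1 and sea link its intermediates to the cytosol. Idh, the NADP-dependent isocitrate dehydrogenase that supplies NADPH, had 471.86, 480.87 and 478.04 TPM in overexpression ovaries, against 508.32, 501.9 and 510.29 TPM in controls. Its groups were separated by more than 20 TPM with an SD of 4.61 TPM in overexpression ovaries and 4.39 TPM in controls, and it was at -0.09 on the log2 scale (limma, adjusted p = 0.755). Within batches 1, 2 and 3 the difference was -0.11, -0.06 and -0.09. Mdh1, the cytosolic malate dehydrogenase, averaged 377 ± 13.6 TPM in overexpression ovaries and 384 ± 6 TPM in controls (SD, n = 3 each). The citrate carrier of the inner mitochondrial membrane, sea, averaged 126 ± 5.92 TPM in overexpression ovaries and 129 ± 6.8 TPM in controls. Over the whole TCA list, 18 of 21 genes had overlapping groups, SdhA and Idh were lower in every overexpression sample and kdn was higher in every one. The matching shares of all tested features are 5.6% and 6.25%.

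Replicates were close for both pathways. Over the 21 TCA genes, the median coefficient of variation was 3.92% in overexpression ovaries and 2.87% in controls, and over the 14 tested glycolysis genes it was 3.9% in overexpression ovaries and 3.31% in controls. For the 3820 tested features with a mean of at least 50 TPM it was 5.4% in overexpression ovaries and 4.65% in controls. Pepck1 was the most variable of the 35, at 24.6% in overexpression ovaries and 34.4% in controls. The size of the glycolysis offset moved with single samples. The glycolysis sum was lowest in overexpression replicate 1, at 5859 TPM, and highest in control replicate 3, at 6642 TPM. Without these in turn its log2 ratio of -0.09 became -0.0747 and -0.0692, and leaving out either could only shrink the offset. Leaving out each of the other samples in turn gave larger offsets, from -0.1099 to -0.1018.

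The 37 genes contrast with their paralogs of the same name stem, several of which, such as Hex-t1 and Hex-t2, are named or known as testis forms. Of 15 such paralogs in the table, 8 were listed at 0 in all 6 samples, namely Hex-t1, Hex-t2, Pglym87, Gpdh2, mAcon2, SdhAL, SdhCL and Fum3. Ald2 was listed at 0 in the 3 overexpression samples and did not exceed 0.04 TPM in controls, and SdhBL reached 0.09 TPM in a single overexpression sample. Scsalpha2 did not exceed 0.07 TPM in any sample, and Fum4 did not exceed 0.05 TPM in overexpression ovaries or 0.13 TPM in controls. Fum2, which overlaps Fum1 on the same strand, so that reads could be split between them, had 0.53, 0.78 and 0.95 TPM in overexpression ovaries, against 0.58, 0.44 and 0.5 TPM in controls. Gpdh3 was the only paralog to pass the filter, with 13.8 ± 0.898 TPM in overexpression ovaries and 14 ± 1.58 TPM in controls (SD, n = 3 each), and Gpdh1 was 17.7 ± 0.671 times as abundant in overexpression ovaries and 18 ± 2.05 times in controls. All 15 paralogs together summed to between 14 and 15.9 TPM in overexpression ovaries and between 13.1 and 16.2 TPM in controls.

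A further 41 genes of central carbon metabolism were listed and 40 were found, of which Pepck2 is also one of the paralogs above. Limma called 0 of the 38 that passed the filter (3 at an unadjusted p under 0.05), the authors' deposited table called 0 of the 40, and their median log2 fold change was -0.01. The highest log2 fold change was that of Tps1, trehalose-6-phosphate synthase, at 0.19, whose 1.25, 0.88 and 4.96 TPM in overexpression ovaries overlapped the 2.43, 1.2 and 1.25 TPM of controls. AcCoAS, acetyl-CoA synthetase, followed at 0.18 with 51.9 ± 7.44 TPM in overexpression ovaries and 45.5 ± 3.66 TPM in controls (SD, n = 3 each). The lowest was that of Pgls, the lactonase of the pentose phosphate pathway, at -0.17, with 44.47, 41.28 and 40.56 TPM in overexpression ovaries, against 45.94, 48.39 and 48.25 TPM in controls. Mpc2, a subunit of the mitochondrial pyruvate carrier, came next at -0.16 with 62.8 ± 7.39 TPM in overexpression ovaries and 70.2 ± 7.55 TPM in controls. Of these 4, only Pgls had separated groups (limma, adjusted p = 0.593).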

How the data were processed

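The authors deposited TPM per feature with 1 column per sample, per the file headers; the number of value columns that matched no sample was 0. The submitters' processing notes name STAR; the counter, the genome build and the annotation are not given in the sources used here. Per the labels' protocols, libraries came from a stranded mRNA kit. The deposited table also holds the authors' own log2 fold change, mean log2 CPM, p-value and FDR, per the file headers. Depth is unknown. Positions are those of the deposited table; 36 of the 37 genes had the same position in the BDGP6.54 annotation, and Fum1 had an older identifier.

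Values were tested on log2(TPM + 1) with limma 3.58.1 in R 4.3.3 (trend, group as the only term), over the 7855 features with a mean of at least 1 TPM, with Benjamini-Hochberg adjustment. Python 3.11.15, pandas 2.3.3 and scipy 1.17.1 did the rest. The fit was tested on simulated data with 200 changed features. Each replicate number is also the batch in the labels, so it pairs samples; deviations of same-numbered samples correlated at -0.06, -0.06 and 0.21. The genes, lists and tests were chosen with earlier results of these data known. All genes of both lists and all paralogs are named by rule, and of the other carbon genes the 2 highest and 2 lowest; CG45087 and swaPsi were added after their values were seen. Alternatives were another pseudocount, filter, scaling, a replicate block, no trend, leaving out each sample, and the authors' comparison. Men-b2 matched no feature.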

Additional observations from a re-analysis of the deposited data

How the results depend on the processing

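No gene of the 2 pathways or of the other carbon list was called by limma in any of the 13 other fits, 1 of which, with a mean of at least 5 TPM, did not test Pepck1. The authors' deposited comparison called 1 glycolysis gene, Pepck1, 0 TCA genes and 122 features in all. Over all features, limma called 13 with no filter on low values, 16 with the replicate block and 11 to 27 when 1 sample was left out, against 22. The replicate block, which pairs the samples by batch, left 0 genes of either pathway called. The TCA median log2 fold change was -0.0213; it became 0.0044 under quantile normalization and ran from -0.0366 to -0.0049 when 1 sample was left out. For all of these the cause was not tested.

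Of the 35 genes tested, 12 took the opposite sign somewhere, all within 0.0349 of 0 in the fit reported and with an adjusted p of 0.824 or more in the settings that turned them. Under quantile normalization these were Ald1 (0.0023), Pdha (0.0080), Idh3b (0.0044), Idh3g (0.0043), ScsbetaG (0.0099) and SdhD (0.0167). Trimmed mean scaling turned ScsbetaG (0.0028) and SdhD (0.0039), and the authors' deposited comparison gave Pdk as -0.0392. Leaving out 1 sample gave ranges of -0.0757 to 0.0221 for Ald1, -0.0809 to 0.0085 for Gpdh1, -0.0595 to 0.0067 for Pdha, -0.0351 to 0.0451 for Pdhb, -0.0501 to 0.0623 for Pdk and -0.0518 to 0.0006 for mAcon1. The same ranges were -0.0106 to 0.0211 for Idh3a, -0.0414 to 0.0028 for Idh3b, -0.0711 to 0.0075 for Idh3g, -0.0570 to 0.0197 for ScsbetaG, -0.0688 to 0.0332 for SdhD and -0.0068 to 0.0279 for Mdh2. The other 23 kept their sign in every setting. Among them, leaving out 1 sample brought Pglym78 to -0.0616 and ScsbetaA to -0.0331 (without overexpression replicate 1), PCB to -0.0631 (without overexpression replicate 3) and Tpi to -0.0621 (without control replicate 3). As TPM keeps no depth, counting error cannot be given for Pepck1, Hex-C and Ldh, the lowest of the 37.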
